A study of Mus musculus with 6 samples.

Results

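ATAC-seq, in which the transposase Tn5 cuts and tags accessible DNA, was examined at the loci of 10 genes that encode surface proteins used to sort adipose progenitors: Pdgfra, Pdgfrb, Ly6a, Cd34, Dpp4, Pi16, Icam1, F3, Cd9 and Thy1. A locus was the gene body with 20 kb on each side (mm10, GENCODE M21), and a peak belonged to it when its summit lay there. Between 236 and 269 summits per library met this rule, of 299433 to 299620 in each list. They fell into 138 of the 179253 windows of about 0.5 kb that were compared across the genome, and the 10 genes stand among 21755 protein-coding genes. The cells were undifferentiated preadipocytes (day 0) cultured from inguinal white adipose tissue of young adult C57BL/6 mice, with 3 wild type (WT) libraries and 3 libraries from double knockout mice (DKO, genotype Hmgn1-/- and Hmgn2-/-). Hmgn1 and Hmgn2 encode nucleosome-binding proteins and were missing from every cell of the DKO mice, not from progenitors alone. The age class is from the study's protocol for these cultures, and its text describes the work as done with males. The labels give no age or sex and do not say how many mice gave each culture. P-values therefore measure the spread between these libraries, which may be technical.

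Adipocytes of white fat arise from stromal cells that carry the platelet-derived growth factor receptors and the antigens SCA1, CD34, CD9 and CD90. In mouse subcutaneous fat these cells have been divided into an interstitial state marked by DPP4 and PI16, a more committed preadipocyte state marked by ICAM1, and an F3 (CD142) state described as a regulator of adipogenesis. The states are defined by transcripts and surface protein, whereas ATAC-seq of a culture reports accessible DNA averaged over all its cells. An open promoter is thus not a measure of expression. In a bulk culture, fewer cells of a state and less accessibility per cell cannot be told apart.

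Values of peaks are fold enrichments as written by the peak caller MACS2, that is, the Tn5 cut sites piled up at a summit divided by the background expected around it in that library. Each list was limited to about 300000 summits, so a summit that is missing from a list was under its limit and not shown to be closed. The libraries differed in scale. Over the 103981 windows listed in all 6 libraries, the WT medians of fold enrichment were 7.603, 6.55 and 9.07, and the DKO medians 6.89, 7.09 and 6.27, in replicate order. The median was highest in WT replicate 3 and lowest in DKO replicate 3, and unscaled values carry this difference, so counts of groups that do not overlap are read against the background. The smallest pileup of cut sites at a listed summit was between 8 and 12, and this number limits the precision of the weak peaks.

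None of the marker windows passed an adjusted p of 0.05 in the comparison of DKO with WT. The test was limma on quantile-normalised log2 fold enrichment with Benjamini-Hochberg adjustment over all windows, which called 0.0569% of the windows of the genome. The smallest adjusted p at the marker loci was 0.166. An unadjusted p under 0.05 was reached by 15 marker windows (10.9%), of which 6 were lower and 9 higher in DKO, beside 11.8% of all windows. Without the mean-variance trend in limma, 1 marker window was called lower and 1 higher. Each was listed in a single genotype, with the other set to the nearly constant lowest values of its lists, so these calls rest on that fill. Without the trend, 1.17% of all windows were called lower and 1.14% higher, beside 1 of 138 marker windows in each direction. The median log2 change was 0.08 at the marker windows and 0.01 over all windows, and 58.0% of the marker windows had a positive log2 change beside 51.4% of all windows. The shares of marker windows at the limits of the comparison thus lay near those of the genome.

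The counts of windows whose WT and DKO values did not overlap were also near the background. Fold enrichment was lower in every DKO library than in every WT library in 22 marker windows (15.9%), beside 13.6% of all windows. It was higher in every DKO library in 6 (4.35%), beside 3.33%. The rank by p, which does not depend on the scale of a library, was worse in every DKO library in 11 marker windows (7.97%, beside 9.68% of all windows). It was better in every DKO library in 11 (7.97%, beside 7.29%). The plot of log2 changes by gene shows where these windows lie.

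**Figure D1:**
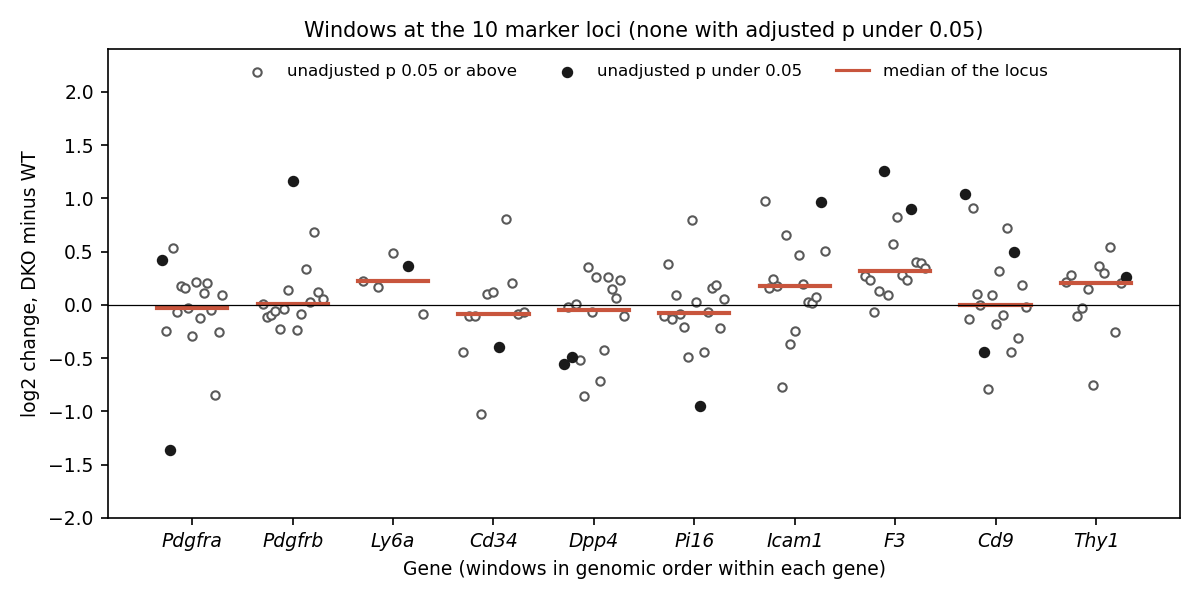
Log2 change (DKO minus WT, quantile-normalised) of each of the windows at the 10 marker loci, with windows in genomic order within a gene. Filled points are the 15 windows with an unadjusted limma p under 0.05, and the coloured line is the median of the locus, which was 0.31 at F3 and -0.09 at Cd34.

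Dpp4, Pi16, Icam1 and F3, the markers of the progenitor states, each had a promoter window with a summit in all 6 libraries. A promoter window is the strongest window centred within 1 kb of a transcription start site (TSS) of the gene. None of these promoters stood among the stronger ones. Of the 14583 protein-coding promoters with a window, 22.6% had a lower mean fold enrichment than that of Dpp4, 15.2% than that of Pi16, 25.0% than that of Icam1 and 31.7% than that of F3. The promoter markers of all the states were thus listed in the same cultures of both genotypes. The plot of promoter windows gives the value of each library.

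**Figure D2:**
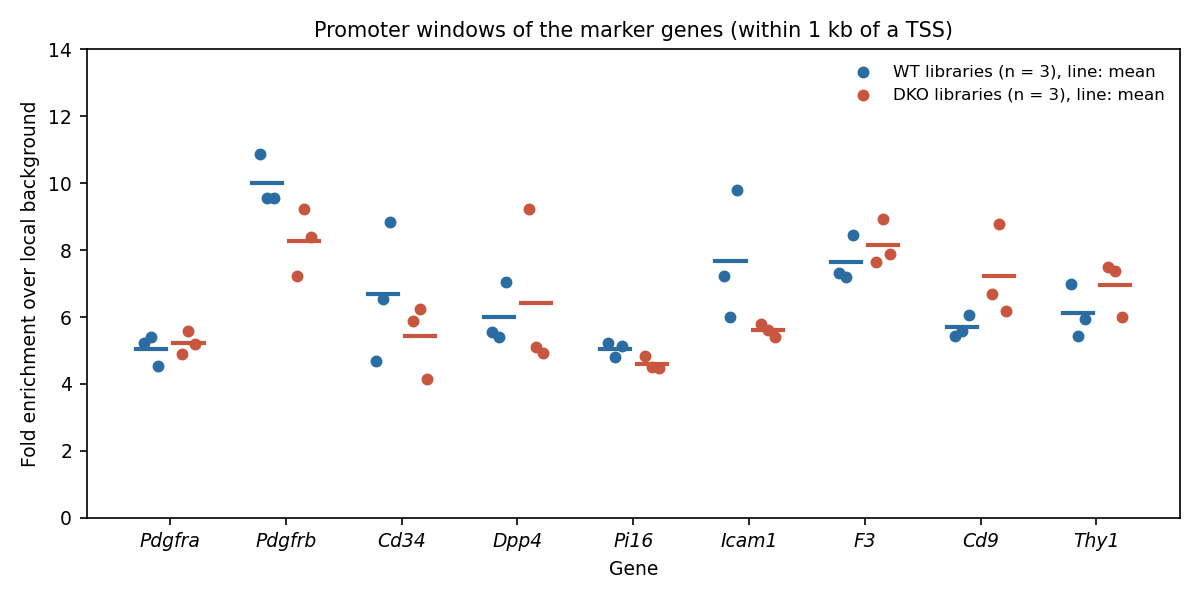
Fold enrichment at the promoter windows of the marker genes in each of 3 WT and 3 DKO libraries, with the group means as lines. Ly6a is absent because no window was centred within 1 kb of its TSS. The unscaled groups do not overlap at Pdgfrb and Icam1 (lower in DKO) and Cd9 (higher). Over all protein-coding promoters, 10.3% were lower and 3.82% higher in every DKO library.

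The central bases of the promoter windows of the state markers are shown because they are the accessible starts of the genes that define the states. They were read from the plus strand of GRCm38.p6 (NCBI RefSeq). Capitals mark matches to 6 motifs searched on both strands, which are AP-1 (TGACTCA or TGAGTCA), TEAD (CATTCC), C/EBP (TTGCNNAA), EBF (CCCNNGGG), SP/KLF (GGGCGG) and NF-kB (GGGANTTCC or GGAAATTCC). The coordinates are chr2:62411857-62412057 for Dpp4, chr17:29318734-29318934 for Pi16, chr9:21015872-21016072 for Icam1 and chr3:121723246-121723446 for F3.
Dpp4 promoter: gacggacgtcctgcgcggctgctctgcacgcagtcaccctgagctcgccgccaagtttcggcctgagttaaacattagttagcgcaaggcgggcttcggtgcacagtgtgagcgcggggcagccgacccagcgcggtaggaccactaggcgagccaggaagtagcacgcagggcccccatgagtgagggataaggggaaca
Pi16 promoter: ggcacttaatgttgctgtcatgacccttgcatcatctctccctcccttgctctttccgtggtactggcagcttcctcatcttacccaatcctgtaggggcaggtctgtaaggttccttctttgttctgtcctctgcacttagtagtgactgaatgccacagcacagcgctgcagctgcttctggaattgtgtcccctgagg
Icam1 promoter: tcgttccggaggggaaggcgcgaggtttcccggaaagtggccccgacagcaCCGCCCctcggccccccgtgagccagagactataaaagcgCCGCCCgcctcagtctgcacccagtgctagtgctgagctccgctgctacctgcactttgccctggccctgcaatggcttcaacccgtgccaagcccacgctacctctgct
F3 promoter: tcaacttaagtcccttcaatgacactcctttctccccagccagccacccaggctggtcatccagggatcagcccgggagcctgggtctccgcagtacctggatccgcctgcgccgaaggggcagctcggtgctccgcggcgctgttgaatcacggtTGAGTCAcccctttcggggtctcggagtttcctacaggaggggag
The G and C content was 64.2% at Dpp4, 52.2% at Pi16, 65.7% at Icam1 and 62.7% at F3. The Icam1 sequence holds the reverse complement of the SP/KLF letters at bases 52 to 57 and again at bases 92 to 97. The F3 sequence holds an AP-1 match at bases 157 to 163, and the Dpp4 and Pi16 sequences hold none of these letters. SP/KLF letters were found in 9.97% and AP-1 letters in 23.6% of all windows of the same length, so these matches are a description and not evidence of binding.

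Dpp4, which encodes a membrane peptidase that trims peptide hormones, had its strongest summit far from the promoter. The promoter window (chr2:62411707-62412207) lay 274 bp inside the gene over the 5' UTR, with fold enrichments of 5.55, 5.41 and 7.04 in WT and 9.23, 5.10 and 4.92 in DKO. The groups overlapped there, as DKO replicate 1 was the highest and the other DKO libraries the lowest of the 6. The log2 change was 0.23 ± 0.25 (SE, limma adjusted p = 0.739), and it turned to -0.05 without DKO replicate 1. The distal window, which has the highest mean fold enrichment over the 6 libraries among the windows centred in the locus and over 1 kb from every TSS, was in an intron 61737 bp downstream of the TSS (chr2:62350244-62350744). Its fold enrichment was 20.7, 20.49 and 23.4 in WT and 20.8, 21.2 and 18.02 in DKO. The genotypes were close at this window, with a log2 change of 0.01 ± 0.09 (SE, adjusted p = 0.994), and the ranks of its summits lay between 2.89% and 5.45% of the lists. An intronic window 70939 bp downstream was lower in DKO in every library, at 7.30, 7.97 and 12.3 in WT and 5.03, 6.24 and 5.57 in DKO. Its ranks were also worse in every DKO library, and its log2 change of -0.49 ± 0.18 (SE) did not pass the test (adjusted p = 0.321). Among the 100000 best summits of each library it was -1.32 and again did not pass (adjusted p = 0.393). That setting leaves out the summits of WT replicate 1 and of all DKO libraries at this window, so the larger change rests on the lowest values put in their place. Of the 16 windows at Dpp4, 11 were listed in all 6 libraries and 7 had a positive log2 change.

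Pi16, which encodes a secreted and membrane-anchored protein of interstitial fibroblasts, had a weak promoter window (chr17:29318584-29319084) at 10 bp from an annotated TSS inside the gene. The fold enrichment was 5.22, 4.82 and 5.14 in WT and 4.84, 4.50 and 4.49 in DKO, on pileups of 17 to 24 cut sites. The groups overlapped narrowly, and after scaling the log2 change was 0.03 ± 0.22 (SE, adjusted p = 0.994). The strongest summits of the Pi16 locus were not at Pi16 but at the TSS of the neighbouring gene Mtch1, at 15.1, 13.6 and 17.2 in WT and 13.4, 14.3 and 15.0 in DKO. The distal window (chr17:29341925-29342425) lay in an intron of Mtch1 and had 9.49, 10.3 and 10.7 in WT and 12.1, 9.90 and 8.92 in DKO, which overlap. A weak intergenic window 11718 bp downstream of the nearest Pi16 TSS was listed in all WT libraries, at 3.94, 3.98 and 4.64, and only in DKO replicate 2 among the DKO libraries, at 3.68. Its adjusted p was 0.422, on pileups of 13 to 16. Of the 16 windows at the locus, 12 were listed in all 6 libraries.

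Icam1, which encodes an adhesion receptor for leukocyte integrins, was the one state marker whose promoter values did not overlap between genotypes. The promoter window (chr9:21015722-21016222) was centred 13 bp upstream of the TSS, with 7.22, 6.00 and 9.80 in WT and 5.80, 5.62 and 5.39 in DKO. All DKO values lay below all WT values, and the ranks were worse in every DKO library as well, at 23.0% to 32.7% of the list in WT and 34.4% to 38.05% in DKO. The log2 change of -0.25 ± 0.17 (SE) did not pass the test (adjusted p = 0.541). Among the 100000 best summits of each library, which leave out the DKO summits of this window, it was -1.57 and again did not pass (adjusted p = 0.0934). A weaker window 814 bp inside Icam1 went the other way, at 3.91, 3.57 and 3.98 in WT and 4.60, 6.00 and 3.9 in DKO. Its ranks were better in every DKO library although its fold enrichments overlapped. The Icam1 locus also holds Icam4, Icam5 and Mrpl4, and in 4 of the 6 libraries the strongest summit was at the TSS of Mrpl4. The distal window (chr9:21030625-21031125), in an exon of the non-coding gene Gm47079 near Icam5, had 12.0, 7.42 and 10.2 in WT and 8.57, 8.28 and 9.20 in DKO, with a log2 change of 0.02 ± 0.17 (SE, adjusted p = 0.994). Of the 15 windows at the locus, 12 had a positive log2 change.

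F3, which encodes tissue factor, the initiator of blood coagulation, was the member with the most windows of one sign. Of its 14 windows, 13 had a positive log2 change after scaling and 11 were listed in all 6 libraries. Some of the 13 had a lower unscaled mean in DKO, such as 2.75 in WT and 2.63 in DKO at 15215 bp downstream. The median log2 change of the locus was 0.31, and 98.7% of the 8046 protein-coding loci with at least 10 windows had a lower median. Other members also lay towards either end, with 93.0% at Thy1 and 89.3% at Icam1, and 9.41% at Cd34 and 10.3% at Pi16. The share was 15.9% at Dpp4, 19.7% at Pdgfra, 28.7% at Cd9 and 33.2% at Pdgfrb. No window at F3 passed the test. The promoter window (chr3:121723096-121723596) was centred 191 bp upstream of the F3 TSS and over an exon of the non-coding gene Gm43823, with which its accessibility cannot be told apart. Its fold enrichment was 7.32, 7.20 and 8.44 in WT and 7.65, 8.94 and 7.89 in DKO, which overlap (log2 change 0.28 ± 0.14, SE, adjusted p = 0.458). That change was 0.033 with the recovered pileup in place of fold enrichment and 0.093 with no scaling between libraries. The distal window (chr3:121736461-121736961) lay 13174 bp downstream of the TSS, beyond the gene, with 5.33, 5.86 and 5.97 in WT and 6.89, 6.48 and 6.83 in DKO. All DKO values exceeded all WT values, and the ranks were 7.40% to 10.2% of the list in WT and 3.62% to 5.21% in DKO. The pileups at this window overlapped, at 143, 126 and 216 in WT and 189, 176 and 144 in DKO. The log2 change was 0.40 ± 0.19 (SE, adjusted p = 0.434), and it was 0.24 with no scaling and 0.78 among the 100000 best summits. The strongest window of the locus, 12490 bp upstream of F3 and 801 bp from the TSS of the non-coding gene Gm43608, went the other way in fold enrichment. It had 9.35, 8.82 and 9.25 in WT and 7.44, 8.19 and 7.40 in DKO, lower in every DKO library, while its ranks overlapped and the scaled log2 change was -0.07 ± 0.15 (SE, adjusted p = 0.893). Away from the TSS of other genes, the highest single summit was 7.86, 6.11 and 7.85 in WT and 8.74, 9.08 and 6.99 in DKO, above the distal window in every library and with overlap between the genotypes. The window beside the distal one, 12493 bp downstream, had 2.58, 2.38 and 3.11 in WT and 3.53, 3.71 and 3.56 in DKO, again without overlap (log2 change 0.90 ± 0.35, SE, adjusted p = 0.342). A window 10151 bp upstream was listed in no WT library and in all DKO libraries, at 3.10, 3.83 and 3.53. Its DKO pileups were 22, 30 and 19, and the limma adjusted p was 0.191 with the WT libraries set to the lowest fold enrichment of their lists. The map of windows along the 4 loci shows these positions.

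**Figure D3:**
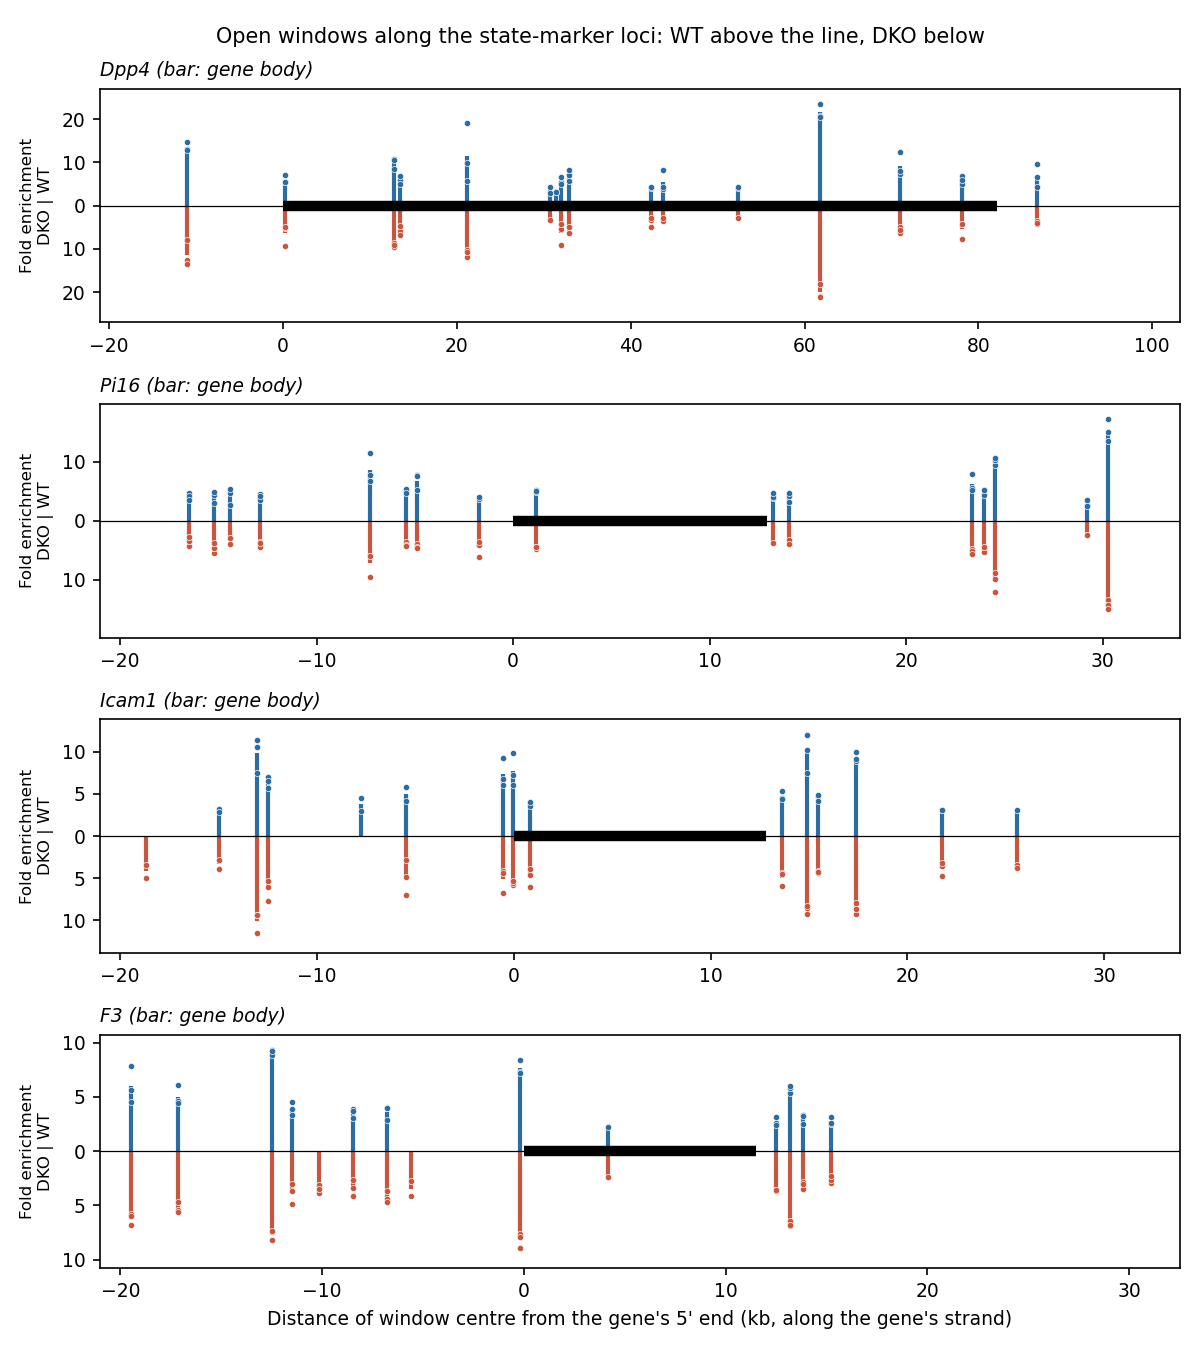
Fold enrichment of each window against its distance in kb from the 5' end of the gene at the Dpp4, Pi16, Icam1 and F3 loci, WT above the line and DKO below. Points are libraries, bars the mean of the libraries that list the window, and the black bar the gene body. The strongest Dpp4 window lies inside the gene 61.7 kb from its 5' end, whereas the strongest window of the Pi16 locus is at the Mtch1 TSS.

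The central bases of the distal windows of the state markers are shown as examples of accessible sequence of these loci outside promoters. The coordinates are chr2:62350394-62350594 for Dpp4, chr17:29342075-29342275 for Pi16, chr9:21030775-21030975 for Icam1 and chr3:121736611-121736811 for F3 (plus strand, GRCm38.p6, NCBI RefSeq), and capitals mark the same motifs.
Dpp4 distal: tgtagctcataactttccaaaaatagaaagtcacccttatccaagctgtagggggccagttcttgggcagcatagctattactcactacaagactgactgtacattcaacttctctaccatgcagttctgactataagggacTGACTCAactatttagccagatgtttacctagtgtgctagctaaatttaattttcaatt
Pi16 distal: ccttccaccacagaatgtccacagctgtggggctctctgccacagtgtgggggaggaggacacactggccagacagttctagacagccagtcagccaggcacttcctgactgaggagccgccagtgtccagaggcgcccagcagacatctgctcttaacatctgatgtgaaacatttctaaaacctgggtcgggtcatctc
Icam1 distal: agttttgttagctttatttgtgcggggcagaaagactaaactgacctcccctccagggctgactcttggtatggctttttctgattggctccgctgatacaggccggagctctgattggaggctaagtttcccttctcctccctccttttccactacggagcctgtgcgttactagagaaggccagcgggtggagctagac
F3 distal: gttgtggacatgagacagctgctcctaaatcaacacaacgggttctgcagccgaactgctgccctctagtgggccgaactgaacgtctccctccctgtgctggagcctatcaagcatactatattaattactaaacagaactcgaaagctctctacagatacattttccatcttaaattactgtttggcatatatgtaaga
The Dpp4 sequence holds an AP-1 match at bases 143 to 149. The other sequences hold none of the letters searched, including the F3 window in which all DKO values exceeded all WT values. The G and C content was 39.3%, 56.7%, 52.7% and 44.3% in the order shown.

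Over all marker windows, the motif shares were close to those of the genome for most of the letters searched. AP-1 letters were found in 21.01% of the marker windows beside 23.6% of all windows, TEAD letters in 18.1% beside 16.3%, and C/EBP letters in 11.6% beside 12.0%. SP/KLF letters were found in 11.6% beside 9.97%, and NF-kB letters in 2.17% beside 1.39%. EBF letters, those of a factor family with roles in adipocyte precursors, were found in 11.6% (16 windows) beside 6.77%. The median G and C content was 49.8% at the marker windows and 47.8% over all windows, and 23.2% of the marker windows lay within 1 kb of a TSS beside 16.9% of all windows.

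The wider state lists were read by their promoters. In the list of Dpp4+ interstitial progenitors, all 7 genes (Dpp4, Pi16, Cd55, Anxa3, Wnt2, Bmp7 and Sema3c) had a promoter summit in all 6 libraries. In the list of Icam1+ committed preadipocytes, 7 of 10 genes did, and in the list of F3+ regulatory cells 4 of 8 did, beside 59.7% of all protein-coding genes. Among the 100000 best summits of each library these counts were 2, 1 and 1, which is a lower share in each list than the 46.0% of all protein-coding genes. No promoter of these lists passed the limma test in either direction, and an unadjusted p under 0.05 was reached by 1 gene of the Dpp4 list, 2 of the Icam1 list and 2 of the F3 list, beside 12.1% of the protein-coding promoters with a window.

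In the Dpp4 list the gene with the small p was Wnt2, a Wnt ligand, with 4.98, 8.77 and 8.46 in WT and 11.2, 9.11 and 10.4 in DKO (log2 change 0.68, adjusted p = 0.26). Cd55, a complement inhibitor of the cell surface, had the strongest promoter of that list, at 11.3, 12.3 and 15.2 in WT and 7.44, 11.0 and 8.75 in DKO. Both genes had groups without overlap, in opposite directions, which is 1 of 7 genes lower and 1 higher, beside 10.3% of protein-coding promoters lower and 3.82% higher in every DKO library. In the Icam1 list, Fabp4, the fatty acid binding protein of adipocytes, had the strongest promoter, at 17.4, 15.9 and 17.4 in WT and 13.6, 14.2 and 12.9 in DKO. Fabp4 and Icam1 were lower in every DKO library, and Lpl, the lipoprotein lipase, was higher, at 4.34, 4.04 and 5.02 in WT and 5.63, 5.53 and 5.17 in DKO. Pparg, the master regulator of adipogenesis, was listed in all but WT replicate 1, with 3.98 and 6.16 in the other WT libraries and 3.35, 4.53 and 3.93 in DKO. The basement membrane genes Col4a1 and Col4a2 share one promoter window and were the 2 genes with the small p, at 3.04, 4.41 and 5.77 in WT and 5.25, 6.18 and 5.78 in DKO (log2 change 0.66). In the F3 list, Fmo2 was listed in all WT libraries (3.8, 3.13 and 4.99) and in no DKO library. Gdf10, a ligand of the TGF-beta superfamily, was listed in no WT library and in all DKO libraries (2.92, 3.42 and 4.67). These weak promoters had adjusted p of 0.19 and 0.20.

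Markers of other cell types were read in the same way. The promoter was listed in all 6 libraries for 8 of 10 fibroblast and adipose progenitor genes, 4 of 6 endothelial, 2 of 7 leukocyte, 2 of 6 mural, 1 of 5 mesothelial, 2 of 5 Schwann cell and 1 of 6 mature adipocyte genes. The pan-leukocyte gene Ptprc, the T cell gene Cd3e and the adipocyte gene Adipoq had no promoter window, whereas the endothelial genes Pecam1 and Tek had promoters of 10.3 to 18.2. The listed mature adipocyte gene was Retn, which encodes resistin, at 11.8 to 13.5 in WT and 10.6 to 11.2 in DKO, in a window centred 772 bp from its TSS. With promoters limited to 500 bp, 0 mature adipocyte and 2 endothelial genes (Tek and Kdr) had a summit in all 6 libraries, as the windows of Pecam1 and Cldn5 lay 603 and 736 bp from the TSS. Summed promoter fold enrichment was 9.16 to 9.84 in WT and 12.3 to 19.8 in DKO for the leukocyte list, and 20.02 to 27.5 in WT and 9.35 to 19.3 in DKO for the mural list, with promoters missing from a list counted as 0. With the lowest value of the list in their place, an alternative chosen after seeing the data, the leukocyte sums stayed apart at 12.3 to 12.9 and 13.8 to 19.8, and the mural sums overlapped at 20.02 to 27.5 and 13.9 to 20.8. Csf1r and Cd68 were the leukocyte promoters listed in WT. Itgam and Adgre1 were kept only through DKO libraries and could only raise the DKO sums. The gap between the leukocyte sums thus cannot be read as a difference of the list. Itgam, the integrin of myeloid cells, and Cdh5, the cadherin of endothelial cells, were listed in no WT library and in all DKO libraries. How common this is over all promoters was not counted. The leukocyte gene Adgre1 was listed in DKO replicates 1 and 2 alone (log2 change 0.85). Csf1r and Cd68, the leukocyte genes listed in all 6 libraries, had log2 changes of -0.02 and 0.35. The endothelial list was divided, with Tie1 (log2 change 1.00, listed in DKO replicates 1 and 3 alone) and Kdr (0.19) also positive and the remaining 3 genes negative. Pecam1 was lower in every DKO library, at 16.9, 12.2 and 17.2 in WT and 11.1, 11.8 and 10.3 in DKO (log2 change -0.31, adjusted p = 0.297), and the log2 change was -0.07 at Tek and -0.23 at Cldn5. Rgs5, a pericyte gene, was listed at 5.55, 4.84 and 6.75 in WT and in DKO replicate 2 alone at 3.12. Mcam was listed in every WT library and no DKO library (log2 change -0.80), and Abcc9 in all WT libraries and in DKO replicate 2 alone (-0.92). The mural genes Cspg4 and Kcnj8 had positive log2 changes of 0.56 and 0.16, with 2.91, 3.30 and 4.46 in WT and 3.81, 5.24 and 4.17 in DKO at Cspg4. None of these promoters passed the test, and the limma adjusted p was between 0.14 and 0.17 at Itgam, Cdh5 and Rgs5. The endothelial sums overlapped, at 42.3 to 53.8 in WT and 43.4 to 52.0 in DKO. The part of other cell types in the differences at the marker loci was not tested.

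Pdgfra, the receptor that defines fibroblast and adipocyte progenitors, had a modest promoter and the strongest distal window of the common markers. The promoter window (chr5:75155631-75156131) had 5.22, 5.40 and 4.54 in WT and 4.90, 5.57 and 5.18 in DKO, which overlap fully (log2 change 0.22 ± 0.23, SE, adjusted p = 0.74). Under the alternatives that change ran from 0.046 to 0.695. The distal window (chr5:75207784-75208284) was intergenic, 52135 bp downstream of the nearest Pdgfra TSS and beyond the 3' end of the gene. Its fold enrichment was 20.2, 18.1 and 27.8 in WT and 21.7, 21.1 and 21.6 in DKO, with a log2 change of 0.09 ± 0.10 (SE, adjusted p = 0.759). A weaker window 6733 bp upstream, in an intron of Gm19583, was listed at 3.92, 4.25 and 4.39 in WT and in no DKO library. Its WT pileups were 27, 27 and 35 and its adjusted p was 0.17, with the DKO libraries set to the lowest values of their lists.

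Pdgfrb, the related receptor of mural cells and progenitors, had the strongest promoter of the members. The promoter window (chr18:61044824-61045324) had 10.9, 9.55 and 9.57 in WT and 7.24, 9.22 and 8.39 in DKO. An intronic window 26810 bp downstream had 10.1, 10.5 and 11.9 in WT and 9.34, 9.63 and 8.07 in DKO. Both were lower in every DKO library, but neither was worse in rank in every DKO library, and the scaled log2 change was -0.09 at each (adjusted p = 0.862 and 0.819). The window with the smallest p of the locus, in an intron 12296 bp downstream, went the other way. It was listed at 2.66 in WT replicate 1, in no other WT library, and at 4.22, 2.51 and 3.96 in DKO. Its fold enrichments overlapped (log2 change 1.16 ± 0.40, SE, adjusted p = 0.278). The locus also holds Csf1r, a receptor of macrophages, and Cdx1.

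Ly6a, which encodes SCA1, is a short gene with 5 windows, all of them listed in all 6 libraries. Its strongest window upstream was centred 1135 bp from the TSS (chr15:74998916-74999416), just outside the promoter limit. It had 9.87, 9.71 and 10.9 in WT and 9.42, 8.85 and 7.13 in DKO, lower in every DKO library (log2 change -0.08 ± 0.14, SE, adjusted p = 0.85). The intronic window 2093 bp downstream (chr15:74995291-74995791) had 8.48, 8.32 and 9.68 in WT and 9.23, 11.1 and 9.76 in DKO. Its ranks were better in every DKO library, at 8.17% to 12.6% of the list beside 13.2% to 15.6% in WT, and the log2 change was 0.37 ± 0.13 (SE, adjusted p = 0.304). It was 0.18 with no scaling and 0.21 with recovered pileup. The ranks of the upstream window were worse in every DKO library, at 12.98% to 18.97% beside 10.01% to 12.4% in WT, and the difference between both windows was not tested. The Ly6 family has close copies in this region, and the reads of one copy may be placed on another.

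Cd34, a sialomucin of progenitors and endothelial cells, had its strongest window 8605 bp upstream of the TSS (chr1:194929964-194930464). It had 18.4, 12.2 and 19.6 in WT and 15.2, 13.5 and 12.8 in DKO, with overlap. The promoter window (chr1:194938707-194939207), over the 5' UTR, had 4.67, 6.55 and 8.85 in WT and 5.87, 6.24 and 4.15 in DKO on pileups of 12 to 33, and the groups overlapped there as well. A window just beyond the 3' end of the gene, 23541 bp from the TSS and in an intron of Gm16897, had 12.6, 12.7 and 14.0 in WT and 10.9, 7.94 and 7.72 in DKO. All DKO values lay below all WT values (log2 change -0.40 ± 0.15, SE, adjusted p = 0.344), while the ranks overlapped.

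Cd9, a tetraspanin, had the marker window with the smallest p. It lay in an intron 26458 bp downstream of the TSS (chr6:125468083-125468583) and was also the distal window of the locus. Its fold enrichment was 15.5, 13.1 and 17.5 in WT and 11.6, 9.94 and 8.62 in DKO, a mean of 15.4 ± 2.17 beside 10.1 ± 1.5 (SD, n = 3). All DKO values lay below all WT values, and the ranks were worse in every DKO library, at 11.0% to 17.2% of the list beside 7.61% to 8.53% in WT. The log2 change was -0.45 ± 0.12 (SE), and it did not pass the test after adjustment over all windows (adjusted p = 0.166). The promoter window of the same gene (chr6:125494488-125494988) went the other way, with 5.43, 5.58 and 6.05 in WT and 6.69, 8.79 and 6.19 in DKO. All DKO values exceeded all WT values there (log2 change 0.50 ± 0.18, SE, adjusted p = 0.316). That change was 0.33 with no scaling and 0.82 with −log10 p. It was 1.26 among the 100000 best summits, which leave out the summits of WT replicates 1 and 3 at this window and replace them with the lowest value. The difference between both windows was not tested.

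Thy1, which encodes CD90, had a promoter window (chr9:44043105-44043605) at 29 bp from the TSS with 6.99, 5.42 and 5.96 in WT and 7.49, 7.37 and 6.00 in DKO. The groups overlapped (log2 change 0.36 ± 0.18, SE, adjusted p = 0.456), and the change was 0.18 with no scaling and 0.15 with recovered pileup. The distal window (chr9:44058599-44059099) was intergenic, at 12.8, 9.46 and 17.8 in WT and 12.2, 14.0 and 14.2 in DKO. The strongest summits of the locus lay at the TSS of the neighbouring gene Usp2, and that window had 15.2, 13.7 and 17.99 in WT and 15.96, 16.03 and 19.2 in DKO (log2 change 0.26 ± 0.12, SE, adjusted p = 0.415, and 0.13 with no scaling). The plot of distal windows sets these loci side by side.

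**Figure D4:**
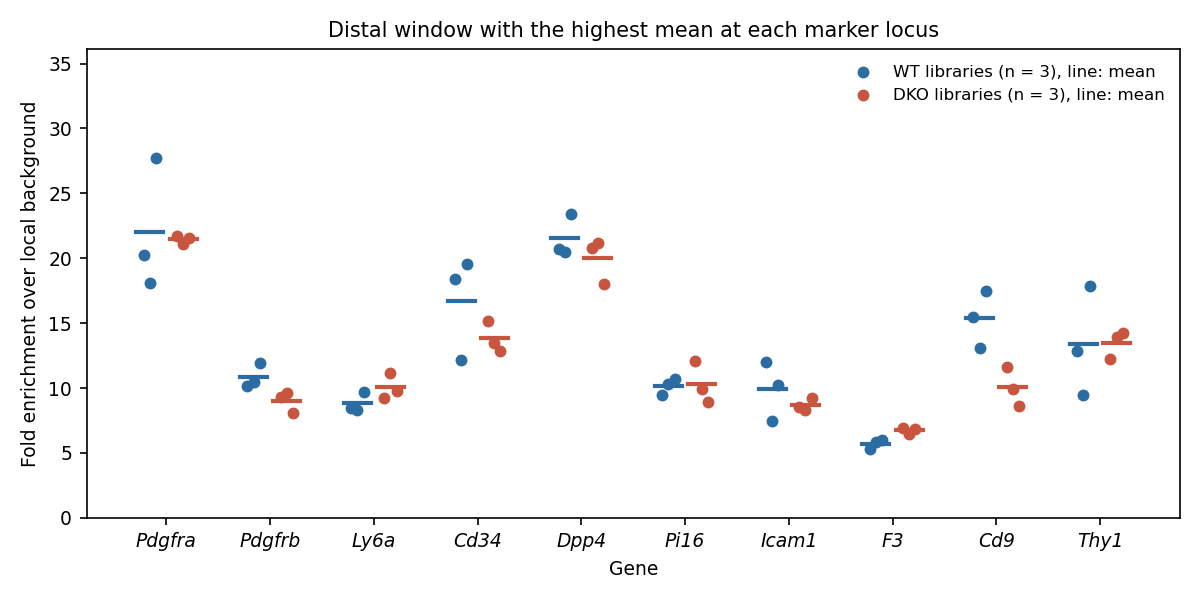
Fold enrichment at the distal window (highest mean over the 6 libraries) of each marker locus in each of 3 WT and 3 DKO libraries, with the group means as lines. Pdgfra and Dpp4 have the highest values. The unscaled groups do not overlap at Pdgfrb and Cd9 (lower in DKO) and F3 (higher). Over all windows, 13.6% were lower and 3.33% higher in every DKO library.

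The loci were then compared by their best summit. The highest fold enrichment of a locus was lower in every DKO library than in every WT library at Pdgfrb (11.1 ± 0.752 in WT and 9.12 ± 0.646 in DKO, SD, n = 3, exact two-sided permutation p = 0.1) and at Cd9 (15.4 ± 2.17 and 10.4 ± 1.57, exact permutation p = 0.1). These were 2 of the 10 loci, beside 12.0% of protein-coding loci. No marker locus was higher in every DKO library, beside 1.00%. With 3 libraries against 3 the exact test cannot go below 0.1, and adjusted over the 10 loci the p was 0.5 for both. After division by the median of each library, Cd9 alone stayed lower in every DKO library, and Thy1, whose best summit is that of Usp2, was higher in every DKO library. After the same division 4.36% of protein-coding loci were lower and 14.7% higher in every DKO library.

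The best rank by p was better in every DKO library at F3, at 8.32% ± 1.58 of the list in WT and 4.21% ± 0.869 in DKO (SD, n = 3, exact permutation p = 0.1). It was also better at Pi16, at 4.59% ± 0.0696 and 3.54% ± 0.842 (exact permutation p = 0.1), where the groups were separated by the narrow gap between 4.51% and 4.52%. These 2 loci stand beside 8.45% of protein-coding loci. The best rank was worse in every DKO library at Cd9, at 8.07% ± 0.460 and 13.8% ± 2.88 (exact permutation p = 0.1), which is 1 locus beside 11.5% of protein-coding loci. The adjusted p was 0.333 at each of F3, Pi16 and Cd9. At F3 the best-ranked summit was that of the distal window downstream of the gene. Pi16 lost its separation when summits near the TSS of other genes were left out, and F3 and Cd9 kept theirs. The number of summits per locus, from 9 at Ly6a to 37 at Dpp4, overlapped between genotypes at all 10 loci.

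**Figure D5:**
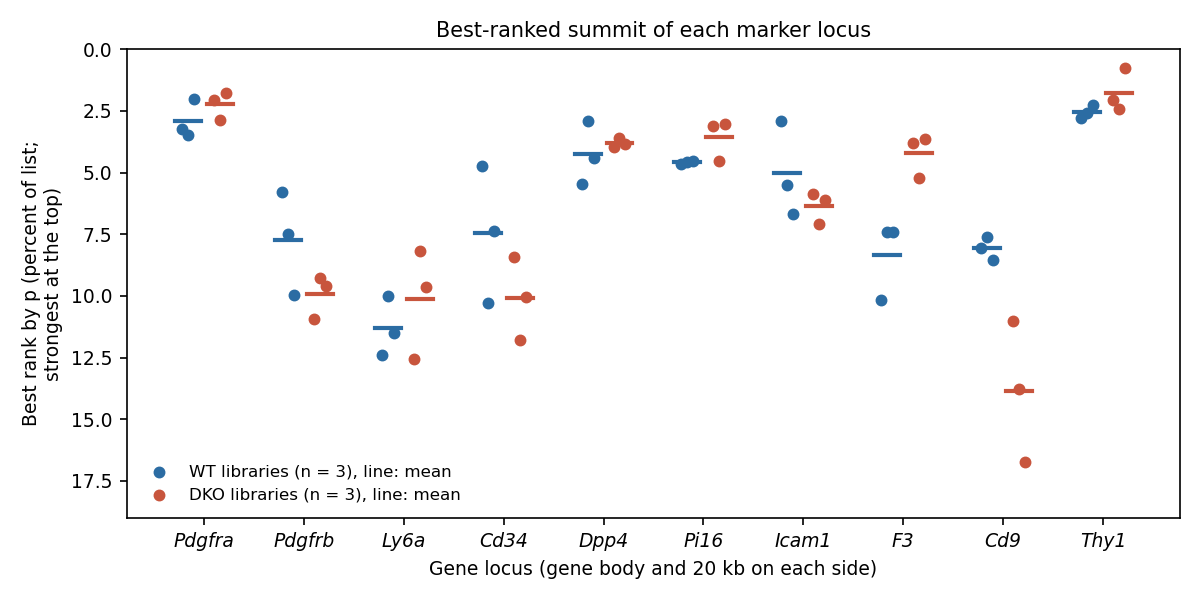
Best rank by p of the summits at each marker locus, in percent of the list and with the strongest at the top, in each of 3 WT and 3 DKO libraries with the group means as lines. The DKO libraries lie above the WT libraries at F3 and Pi16 and below them at Cd9.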

How the data were processed

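Preadipocyte cultures at day 0 gave 3 WT and 3 DKO ATAC-seq libraries. Per the labels and the study's methods, the authors aligned reads to mm10 with Bowtie2 2.3.4.3 after cutadapt 1.18, removed duplicate and mitochondrial reads, and called peaks with MACS2 (version not given in the sources used here) in each library separately. The deposited lists hold, per summit, a fold enrichment (a ratio of pileup to local background) and the p-value and q-value as −log10. The methods give default MACS2 settings, whereas the labelling of the lists points to a p threshold of 0.01, a limit of 300000 and a blacklist filter. They are limited to about 300000 summits, which makes numbers of summits unsuitable for comparison, and the lowest −log10 p ran from 3.54 to 5.63. Read totals were not analysed here. No pair of libraries shared more than 3 identical lines.

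Windows of about 0.5 kb were centred on summits, best ranked first, and kept when at least 2 libraries had a q under 0.01 there. A window took the highest fold enrichment of its summits, or the lowest of the list where none was listed. Log2 values were quantile-normalised and compared with limma 3.58.1 (eBayes with trend, two-sided, Benjamini-Hochberg over 179253 windows, threshold 0.05) in R 4.3.3. The fit was also run on simulated data, and the outcome is not reported here. Quantile normalisation assumes a shared distribution and would hide a global shift. Locus values were compared by the exact permutation test over samples. For each gene the promoter window, the distal window and the window with the smallest p were named; sequences were shown for the state markers, and other windows were chosen after their values were seen. The members and lists were chosen with earlier results of these data known. Distances are from the nearest TSS of the gene in the GENCODE M21 basic set. Alternatives covered scaling, the variance model, filters, window width, −log10 p, recovered pileup (whole numbers for 100% of summits, within 0.001 in −log10 p), the replicate number as a block and each library left out.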

Additional observations from a re-analysis of the deposited data

How the results depend on the processing

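Of the 27 named windows, 19 kept the sign of their log2 change under every alternative that could be computed, and those of Cd9 and F3 were among them. The log2 change moved by over 1.5 times or turned in 20 of them with no scaling, 12 with −log10 p, 13 with recovered pileup and 6 of 19 among the 100000 best summits. With a library left out it did so in 6 to 11 of the 27, and 23 of the 27 did so under at least 1 alternative. Without the variance trend, the 2 windows listed in every library of 1 genotype and in none of the other passed the limma test, at Pdgfra and F3 (adjusted p = 0.0132 each). Those were the marker windows called under that alternative, 1 lower and 1 higher, and no other alternative called a marker window. In each, the unlisted genotype held the nearly constant lowest values of its lists, so this p rests on that fill. The SD was 0.011 in DKO at Pdgfra and 0.044 in WT at F3. Windows called lower over the genome numbered 61 in the reported fit, 173 with median centring, 14 with no scaling, 2089 without trend, 608 when a summit was required in all 6 libraries, 39 with recovered pileup, 0 among the 100000 best summits and 0 to 1 with a library left out. Windows called higher numbered 41, 114, 12, 2048, 295, 36, 0 and 0 to 6 in that order. A replicate block in the fit called 0 windows in either direction and 0 at the marker loci, and the numbers did not pair the libraries (correlations of deviations 0.0054, -0.011 and -0.0071).

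The other named windows turned sign under at least 1 alternative. With no scaling the distal windows of Pdgfra, Dpp4 and Icam1 had -0.012, -0.11 and -0.16 and the Pi16 promoter -0.13. The Icam1 distal window had -0.15 with −log10 p and -0.13 with recovered pileup, the Pdgfrb intronic window 0.00898 with recovered pileup, and the Cd34 promoter 0.00899 with narrower windows. With a library left out, the range was -0.018 to 0.067 for the Dpp4 distal window, -0.052 to 0.39 for the Dpp4 promoter, -0.053 to 0.091 for the Pi16 promoter, -0.068 to 0.18 for the Icam1 distal window, -0.24 to 0.016 for the Pdgfrb promoter, -0.13 to 0.0029 for the Pdgfrb intronic window and -0.33 to 0.035 for the Cd34 promoter.

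Marker loci with a lower highest fold enrichment in every DKO library numbered 2, 1 after division by the library median and 3 with flanks of 5 kb, where Cd34 joined Pdgfrb and Cd9 (12.1% of protein-coding loci with these flanks). With a library left out they numbered 2 to 5, beside 12.2% to 48.4% of protein-coding loci, and the 5 were without WT replicate 2, where the share was 48.4%. Those with a higher one numbered 0, 1 after the division and 0 to 2 with a library left out, the last beside 1.16% to 7.63% of loci. Loci with a better best rank numbered 2, 1 with flanks of 5 kb (8.86% of protein-coding loci), 1 without summits near other genes' TSS (7.76%) and 2 to 4 with a library left out (12.7% to 13.8%). Loci with a worse one numbered 1, and 1 to 3 with a library left out (16.1% to 18.2%). Requiring a summit among the 100000 best in all 6 libraries left 2 genes of the Dpp4 list, 1 of the Icam1 list, 1 of the F3 list, 4 of the common stromal list, 4 of the fibroblast list, 2 endothelial, 1 leukocyte, 0 mural, 0 mesothelial and 1 Schwann cell gene. With promoters within 500 bp, 2 endothelial and 0 mature adipocyte genes had a summit in all 6 libraries. The cause of these shifts was not tested.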
